A study of Xenopus tropicalis with 7 samples.

Results

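*sox1*, *sox2*, *sox3*, *sox4*, *sox11* and *sox21* are 6 genes of the Sox family of DNA-binding transcription factors that mark the developing nervous system. They were taken by name, with earlier results of these data known, so their counts are not independent evidence. All 6 were found among the 19884 genes of the count table, each with 1 transcript. The data came from whole embryos of the frog *Xenopus tropicalis*, of the Nigerian (Cam4) strain. Xbra/Xbra3 KD embryos had been injected at the 1-cell stage with 20 ng of morpholinos that block splicing or translation of *Xbra* and *Xbra3*, the 2 frog counterparts of the T-box gene *Brachyury* that keep tail bud cells on a mesodermal path. Control embryos had received 20 ng of a control morpholino. Each group gave 3 poly(A) RNA libraries at stage 32, a tailbud stage. A seventh library came from uninjected embryos at stage 20, near the close of the neural tube. Each library held the RNA equivalent of 2 embryos. A morpholino lowers the function of its target in every tissue of the embryo and does not delete the gene.

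Sox proteins bind DNA through a shared HMG domain and fall into groups by sequence. *sox1*, *sox2* and *sox3* form the SoxB1 group, whose products activate transcription and hold neural cells as dividing progenitors. *sox21* belongs to the SoxB2 group, and its product is a repressor that promotes differentiation in the chick neural tube. *sox4* and *sox11* form the SoxC group, which acts in cells leaving the progenitor state and turning on neuronal genes, as known from chick and mouse. In the tail bud, *sox2* is also expressed in bipotent cells that can give rise to spinal cord or to muscle.

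After alignment, the counts of the 7 libraries summed to 73740300 to 120160026 reads each, and those of the 6 Sox genes together to 32889 to 79687. By the study's methods, a read pair within a gene was counted once. Levels are given as read counts scaled to a common library size (CPM, the usual unit of reads relative to the library total), scaled between the 7 libraries by the TMM method. Gene lengths were not used, so levels are compared between libraries and not between genes. *Xbra3* (*t2* in the table) was present at 0.760, 0.503 and 0.541 CPM after the knockdown and at 27.1, 14.3 and 24.4 CPM in the controls, 35.7-fold lower in the former. *Xbra* (*t*) averaged 7.37 ± 1.15 CPM (SD, n = 3) in the KD libraries and 14.4 ± 4.07 CPM (SD, n = 3) in the controls. Of 16944 genes tested with edgeR's quasi-likelihood test, 2443 (14.4%) passed a false discovery rate (FDR) of 10%, 7.44% higher and 6.98% lower in KD embryos. Of these calls 51.6% were higher, against 65.5% when libraries were scaled by their size only and 63.7% when they were scaled to 4 reference genes. With TMM the median log2 fold change of all genes was 0.01. Leaving out a single library gave 868 calls (control replicate 3) to 1961 calls (control replicate 2), and 1277 to 1478 without each of the other 4 in turn.

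*sox2*, *sox3*, *sox21* and *sox11* rose in Xbra/Xbra3 KD embryos, to 1.40 to 1.75 times the control level. *sox1* and *sox4* did not pass, and none of the 6 passed in the lower direction. Thus 4 of 6 members were called higher, where 7.44% of all genes tested were, and the median log2 fold change of the 6 was 0.55. The KD and control libraries did not overlap for the same 4 genes, as for 30.5% of all genes. In whole embryos, more cells that express a gene and more RNA of that gene per cell cannot be told apart. The plot of each gene by library shows the values behind these counts.

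**Figure D1:**
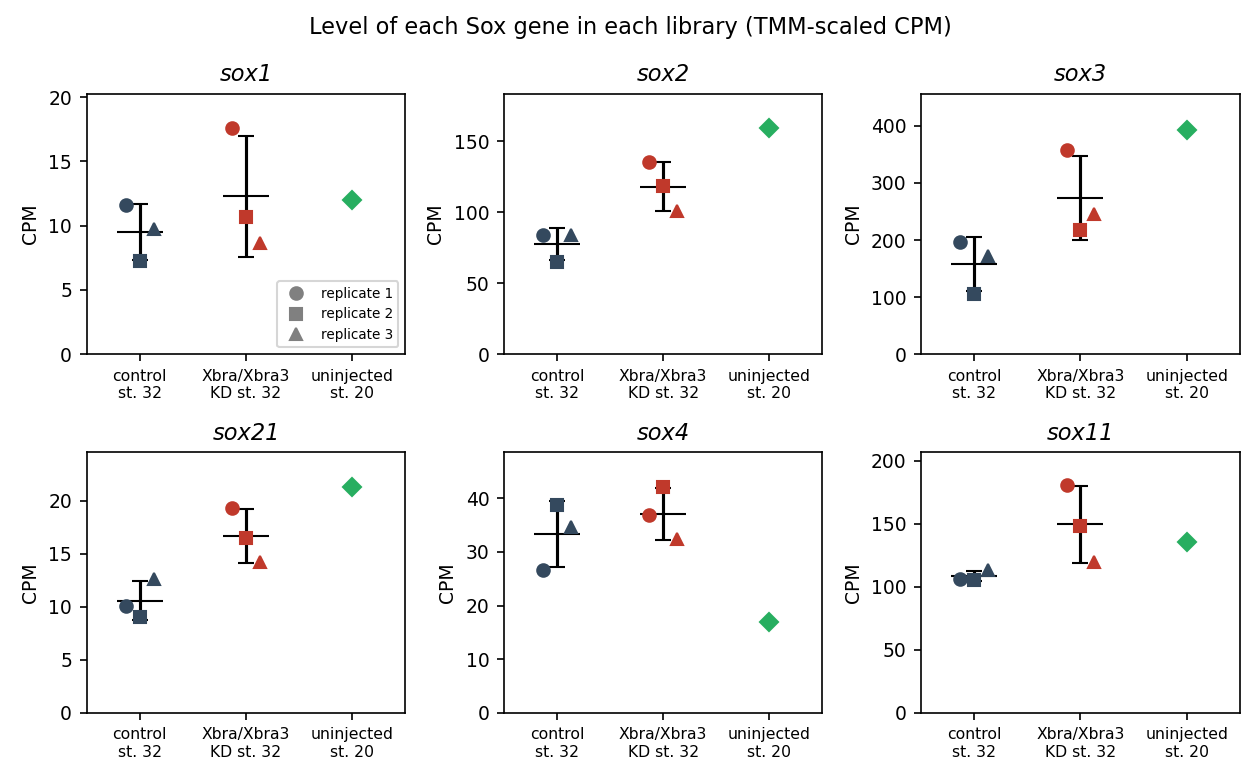
CPM of the 6 Sox genes (vertical axes, each starting at 0) in the 3 control libraries, the 3 Xbra/Xbra3 KD libraries and the 1 stage 20 library; points are libraries and bars are group means with SD. For *sox2*, *sox3*, *sox21* and *sox11* every KD library lies above every control library, while for *sox1* and *sox4* the groups overlap.

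In the SoxB1 group, *sox2* (ENSXETG00000026292) was at 135, 118 and 101 CPM in KD libraries 1, 2 and 3 and at 84.1, 64.8 and 83.8 CPM in control libraries 1, 2 and 3. Every KD library lay above every control library. The means were 118 ± 17.2 CPM against 77.6 ± 11.1 CPM (SD, n = 3 each), a log2 fold change of 0.62 (SE 0.15, 95% interval 0.27 to 0.98) with an FDR of 0.0491 in edgeR's test. *sox2* had the lowest FDR of the 6 genes.

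*sox3* (ENSXETG00000007607), which is expressed with *sox2* in the neural plate, was at 357, 218 and 246 CPM in the KD libraries and at 197, 106 and 171 CPM in the controls. The groups did not overlap, but library 2 was the lowest of both. *sox3* had the largest fitted difference of the 6 genes, with means of 274 ± 73.3 CPM against 158 ± 46.6 CPM (SD, n = 3 each) and a log2 fold change of 0.81 (SE 0.26, 95% interval 0.21 to 1.41). Its spread between libraries of a group was wide as well, with coefficients of variation of 26.8% in KD embryos and 29.5% in controls, and its FDR of 0.0990 lay just under the threshold. When same-numbered libraries were compared with each other through a replicate block, the FDR of *sox3* was 0.00124, and it was 0.109 with the size factors of DESeq2 in place of TMM.

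*sox1* (ENSXETG00000001902), the remaining SoxB1 gene, was at 17.6, 10.7 and 8.62 CPM in the KD libraries and at 11.6, 7.25 and 9.73 CPM in the controls. KD library 1 was the highest of all, but KD library 3 lay below control libraries 1 and 3. The means of 12.3 ± 4.70 CPM and 9.53 ± 2.19 CPM (SD, n = 3 each) gave a log2 difference of 0.38 (SE 0.29, 95% interval -0.28 to 1.05), with an FDR of 0.454. That interval holds no change as well as the estimates for *sox2* and *sox3*. By its own test on group alone, *sox1* therefore cannot be set apart from the other SoxB1 genes. With the replicate block its log2 difference was 0.35 (SE 0.16, FDR 0.140). The block estimates were 0.62 (SE 0.12) for *sox2* and 0.82 (SE 0.11) for *sox3*.

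*sox21* (ENSXETG00000010955), the SoxB2 repressor, was at 19.3, 16.5 and 14.3 CPM in the KD libraries and at 10.04, 9.07 and 12.6 CPM in the controls. The groups did not overlap, and the lowest KD library and the highest control library both carried the number 3. The means were 16.7 ± 2.51 CPM and 10.6 ± 1.82 CPM (SD, n = 3 each), a log2 fold change of 0.68 (SE 0.18, 95% interval 0.27 to 1.09) with an FDR of 0.0607. The gene that promotes differentiation in chick and the progenitor genes *sox2* and *sox3* thus rose in the same embryos.

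Among the SoxC genes, *sox11* (ENSXETG00000023439) was at 181, 148 and 119 CPM in the KD libraries and at 106, 106 and 113 CPM in the controls. The 3 control libraries were nearly level, with a coefficient of variation of 3.74%, whereas the KD libraries ranged widely and the lowest stood close to the controls. The means were 149 ± 30.8 CPM and 108 ± 4.05 CPM (SD, n = 3 each), a log2 fold change of 0.48 (SE 0.15, 95% interval 0.13 to 0.84) with an FDR of 0.0997. With DESeq2's size factors that FDR was 0.112. Under TMM it was 0.104 with no filter beyond 1 read and 0.105 with edgeR's legacy dispersions, where that of *sox3* was 0.104. *sox11* passed with the replicate block (FDR 0.0256), with scaling by library size (0.0639) or by reference genes (0.0815), and in the test of DESeq2 (0.0656). *sox11*, like *sox3*, thus lay close to the threshold in the main fit and passed or failed by the setting used.

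*sox4* (ENSXETG00000014408), the other SoxC gene, was at 36.8, 42.2 and 32.5 CPM in the KD libraries and at 26.6, 38.7 and 34.6 CPM in the controls. The groups overlapped, with KD library 3 below control libraries 2 and 3. The means of 37.2 ± 4.86 CPM and 33.3 ± 6.14 CPM (SD, n = 3 each) gave the smallest log2 difference of the 6 genes, 0.17 (SE 0.17, 95% interval -0.22 to 0.57), with an FDR of 0.575. Library 2, the lowest of both groups for *sox3*, was the highest of both for *sox4*.

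**Figure D2:**
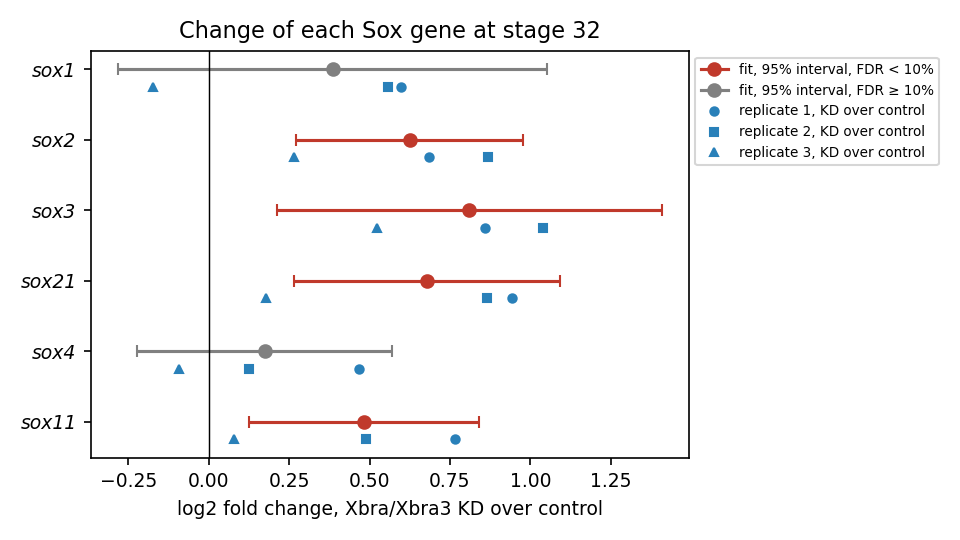
Log2 fold change of KD over control (horizontal axis) for each of the 6 Sox genes, with the 95% interval of edgeR's fit and the 3 differences between same-numbered libraries as single marks. All 6 estimates are above 0, those of *sox1* and *sox4* have intervals that include 0, and pair 3 gives the smallest difference for every gene.

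Libraries were paired by the replicate numbers of the labels, which do not state that the numbers match between groups. Deviations from the group means correlated at r = 0.709, 0.719 and 0.358 in pairs 1, 2 and 3. The 3 pairs gave unequal differences. The median log2 difference over the 6 genes was 0.72 in pair 1, 0.68 in pair 2 and 0.13 in pair 3. For the lists taken up below, these medians were 0.56, 0.50 and 0.31 for neural progenitor genes and 0.46, 0.29 and 0.23 for neuron genes. They were -1.17, -1.25 and -1.01 for muscle genes and -0.31, 0.07 and -0.41 for tail bud genes. Pair 3 gave the smallest difference for each of the 6 Sox genes, from -0.17 for *sox1* and -0.09 for *sox4* to 0.52 for *sox3*. Within pair 3, *sox11* differed by 0.08, *sox21* by 0.18 and *sox2* by 0.27 on the log2 scale. Hence *sox2*, *sox3*, *sox21* and *sox11* were higher in the KD library of 3 of 3 pairs, and *sox1* and *sox4* in 2 of 3. With a replicate block the same 4 genes passed, with FDR values of 0.00124 to 0.0256, while 38.2% of all genes passed.

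The number of calls depended on single libraries in fits on group alone. Leaving out a library there also left its same-numbered partner unpaired, and such fits were not run with the replicate block. Without KD replicate 1, KD replicate 2 or control replicate 2, 0 of the 6 genes passed in edgeR's test. Without control replicate 3 there was 1, without control replicate 1 there were 2, and without KD replicate 3 there were 3. The FDR of *sox2* over these 6 fits ranged from 0.0716 to 0.126 and that of *sox21* from 0.0912 to 0.158. For *sox3* the range was 0.0984 to 0.232 and for *sox11* 0.0664 to 0.228. The estimates of all 6 genes stayed above 0 in each of these fits, with a median of 0.42 to 0.66 over the 6 genes. Those of *sox1* and *sox4* came close to 0. *sox1* was at 0.039 (FDR 0.951) without KD replicate 1, and *sox4* at 0.035 (FDR 0.920) without control replicate 1.

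The ratio of SoxB1 to SoxC reads was taken within each library, where no scaling is needed. In every library *sox3* had the most reads of the SoxB1 genes and *sox11* more than *sox4*. The ratio thus weighs *sox3* and *sox11* most. The log2 ratio of the summed reads of *sox1*, *sox2* and *sox3* to those of *sox4* and *sox11* was 1.23, 0.867 and 1.23 in KD libraries 1, 2 and 3. It was 1.14, 0.307 and 0.844 in the controls. The KD mean was higher by 0.34, and an exact two-sided permutation test without pairing gave p = 0.2, where 3 libraries against 3 cannot give a p below 0.1. Within pairs the ratio was higher in the KD library of 3 of 3, by 0.09, 0.56 and 0.38. The paired exact sign-flip test gave p = 0.25, the smallest that 3 pairs allow, so neither test could settle the difference. Control replicate 2 moved this value most, to 0.12 when it was left out. In the stage 20 library the ratio was 1.89, above all 6 stage 32 libraries.

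Ratios between single members were compared in the same way for all 15 pairs of the 6 genes. In 2 pairs the KD and control libraries did not overlap. The log2 ratio of *sox1* to *sox3* differed by -0.48 (KD minus control, exact permutation p = 0.1), and that of *sox4* to *sox21* by -0.50 (exact permutation p = 0.1). Both p-values are the smallest that 3 libraries against 3 allow, and with Benjamini-Hochberg adjustment over the 15 ratios (p = 0.5 in these exact permutation tests) no ratio could have passed. Whether members changed to different extents is therefore not settled by these tests.

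The stage 20 library shows where these genes stood in younger embryos. It has no replicate, and it differs from the stage 32 controls in both stage and injection, which cannot be told apart. *sox2* was at 159 CPM, *sox3* at 393 CPM and *sox21* at 21.3 CPM in this library. All 3 values lay above every one of the 6 stage 32 libraries, at 2.05, 2.49 and 2.02 times the control mean. The share of all genes that did so was not counted. Scaled by library size alone, *sox3* at stage 20 (357 CPM) was just below KD library 1 (358 CPM). *sox4* lay on the other side, at 16.96 CPM and below all 6, so that the stage 32 controls held 1.96 times its stage 20 level. *sox11* at 135 CPM and *sox1* at 12.0 CPM were above all 3 controls, at 1.25 and 1.26 times their mean, and within the range of the KD libraries. Scaled by library size alone, *sox1* at stage 20 (10.87 CPM) was level with the highest control (10.89 CPM), and *sox11* (123 CPM) was below the lowest KD library (124 CPM).

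The KD comparison and the stage 20 comparison share the 3 control libraries, so their differences are not independent and are only set side by side. Relative to the control mean, *sox3* differed by 0.81 in KD embryos and by 1.31 at stage 20 on the log2 scale, *sox2* by 0.62 and 1.04, and *sox21* by 0.68 and 1.01. For *sox4* the differences were 0.17 and -0.97. For *sox2*, *sox3* and *sox21* the stage 20 library held 1.35, 1.44 and 1.28 times the KD mean. With TMM scaling the KD libraries of these 3 genes thus lay between the stage 32 controls and the stage 20 library. Of the genes named below as higher in KD embryos, *sox10*, *zic1*, *zic2*, *pax3*, *pax2* and *gata3* had the same order. *notch1*, *isl1*, *prph*, *neurog1*, *neurog3*, *dlx5* and *wnt3a* did not. The share of all genes with this order was not counted.

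**Figure D3:**
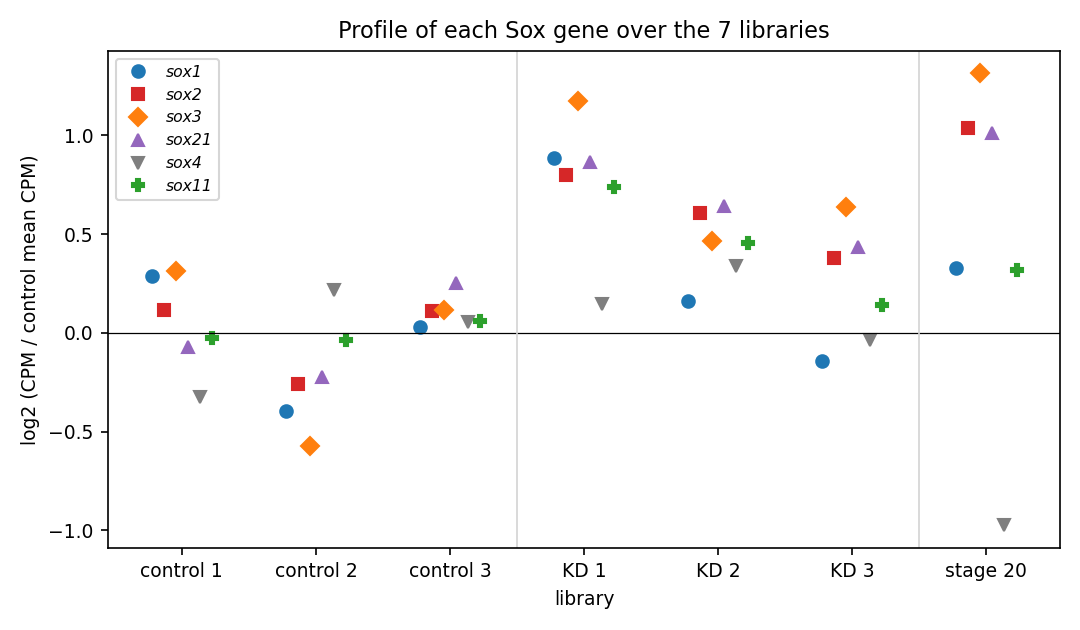
Log2 ratio of each library's CPM to the control mean (vertical axis) for the 6 Sox genes in the 3 control libraries, the 3 KD libraries and the stage 20 library. *sox2* and *sox21* run close together over all 7 libraries, and *sox4* alone is below 0 at stage 20, at -0.97.

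How alike the members were was measured as the root mean square difference of their log2 levels, relative to the control mean, over the 7 libraries. This is a description over libraries that include 3 pairs with a shared replicate number. *sox2* and *sox21* were the closest pair at 0.0984, followed by *sox1* and *sox11* at 0.236 and *sox2* and *sox3* at 0.267. *sox4* was the farthest from the others, at 0.555 to 1.07. In the single stage 20 library *sox4* was also the only member below the control mean, with a log2 ratio of -0.97. How much of these distances, or of those to other genes, came from the stage 20 library was not measured. Among 8937 other genes, the nearest to *sox2* were *morc2* (0.0554), *lrrk2* (0.0753) and *wee1* (0.0908), and *morc2* was also among the 3 nearest to *sox21* (0.110), with *foxk2* (0.0967) and *mycbpap* (0.112). The genes nearest to *sox3* were *otx1* (0.118), a forebrain homeobox gene, *SORBS3* (0.119) and *prex2* (0.131). Those nearest to *sox4* were *ebf3* (0.0681), a transcription factor of differentiating neurons, *olfm1* (0.0842) and *arhgef10l* (0.0919). *mdk* (0.0790), which codes for the growth factor midkine, *pgbd3* (0.0798) and *phyhip* (0.0905) were nearest to *sox11*, and *trmt12* (0.102), *hnrnpd* (0.117) and *azin1* (0.141) to *sox1*.

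Of 13 other Sox genes tested, 1 was called higher and 0 lower, and their median log2 fold change was 0.10. The gene was *sox10*, a SoxE gene of the neural crest, at 104, 74.6 and 80.3 CPM in the KD libraries and at 61.9, 53.4 and 55.1 CPM in the controls. The groups did not overlap, and the log2 fold change was 0.62 (SE 0.15) with an FDR of 0.0433. *sox10* was not called without control replicate 2 or without control replicate 3. It stood at 186 CPM at stage 20. The share of 1 in 13 is near the 7.44% of all genes called higher, and *sox6*, *sox12*, *sox17b.1*, *sox17b.2* and *sox18* had means below 0.4 CPM in both stage 32 groups. The difference between the 6 neural Sox genes and the other Sox genes was not tested.

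Calls in the other gene lists are read against the shares over all genes, 7.44% higher, 6.98% lower and 38.2% in either direction with the replicate block. Of 30 other neural progenitor genes tested, 12 were called higher and 0 lower, and the median was 0.55, the same as for the Sox genes. They included the zinc finger genes *zic1* (log2 fold change 0.98, FDR 0.00458) and *zic2* (1.09, FDR 0.0141), the dorsal neural tube gene *pax3* (0.98, FDR 0.0230) and the receptor gene *notch1* (0.56, FDR 0.0252). Estimates in the fit on group alone were above 0 for 26 of the 30 and below 0 for 4. With the replicate block 23 of the 30 passed, 21 higher and 2 lower, the latter *gmnn* and *fabp7*. In fits on group alone, 7 passed without KD replicate 1, 7 without control replicate 2 and 5 without control replicate 3. Of 31 neuron genes tested, 7 were called higher and 0 lower, with a median of 0.33, and 17 passed with the block, all higher. The neuron count was 4 without KD replicate 1 or control replicate 1, 3 without KD replicate 2 or KD replicate 3, and 1 without control replicate 3. *isl1* (0.69, FDR 0.0167) marks motor and sensory neurons, and *prph* (0.80, FDR 0.0308) codes for an intermediate filament protein of neurons. *neurog3* (1.09, FDR 0.0294) and *neurog1* (0.74, FDR 0.0551) are proneural genes.

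Of 10 neural crest genes 0 were called by edgeR, with 5 at an unadjusted p below 0.05, against 2 by DESeq2, 5 with the replicate block and 4 under scaling by library size. Over all 16944 genes, 4265 had an unadjusted p below 0.05 in edgeR's test. Calls over all genes were 3389 by DESeq2, 6468 with the block and 2518 under scaling by library size. The 5 with the block were 4 higher and 1 lower, a share not far above the 38.2% of all genes. Of 12 placode, lens and otic genes tested, 3 were called higher and 1 lower, and 7 passed with the block, 4 higher and 3 lower. The total of these calls was 2 without KD replicate 1 or control replicate 2, and 1 without control replicate 3. *pax2* (0.79, FDR 0.0287), *gata3* (0.68, FDR 0.0359) and *dlx5* (0.50, FDR 0.0614) rose, and *maf* (-0.47, FDR 0.0840) fell.

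Muscle and tail bud genes differed between the same libraries. Of 25 muscle genes tested, 20 were called lower and 0 higher, with a median log2 fold change of -1.16. The count was 13 without KD replicate 2 and 12 without control replicate 3. Their summed level was 18497 to 20343 CPM in the KD libraries and 37778 to 39711 CPM in the controls, where the 6 Sox genes summed to 522 to 747 CPM and 332 to 435 CPM. *myh2*, a myosin heavy chain gene, was at 200 ± 22.8 CPM against 1141 ± 98.1 CPM (SD, n = 3 each). Of 15 tail bud genes tested, 6 were called lower and 1 higher, while with the block 5 passed higher and 7 lower. *msgn1*, a regulator of presomitic mesoderm, was at 0.195 ± 0.281 CPM against 10.04 ± 4.28 CPM (SD, n = 3 each). The signal gene *wnt3a*, of the same list, rose with a log2 fold change of 1.69 and an FDR of 0.0130. In which tissue it rose was not measured. The summed level of the tail bud genes overlapped between groups, at 90.8 to 138 CPM and 89.3 to 184 CPM. The part of the lower muscle share of the RNA in the higher share of the Sox genes was not tested. The estimates of the 6 Sox genes were above 0 under each of the 4 scalings used, TMM, DESeq2 size factors, library size and reference genes. These scalings differed little, with *sox4*, the smallest estimate, at 0.16 to 0.24. They do not test the part of the muscle share.

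**Figure D4:**
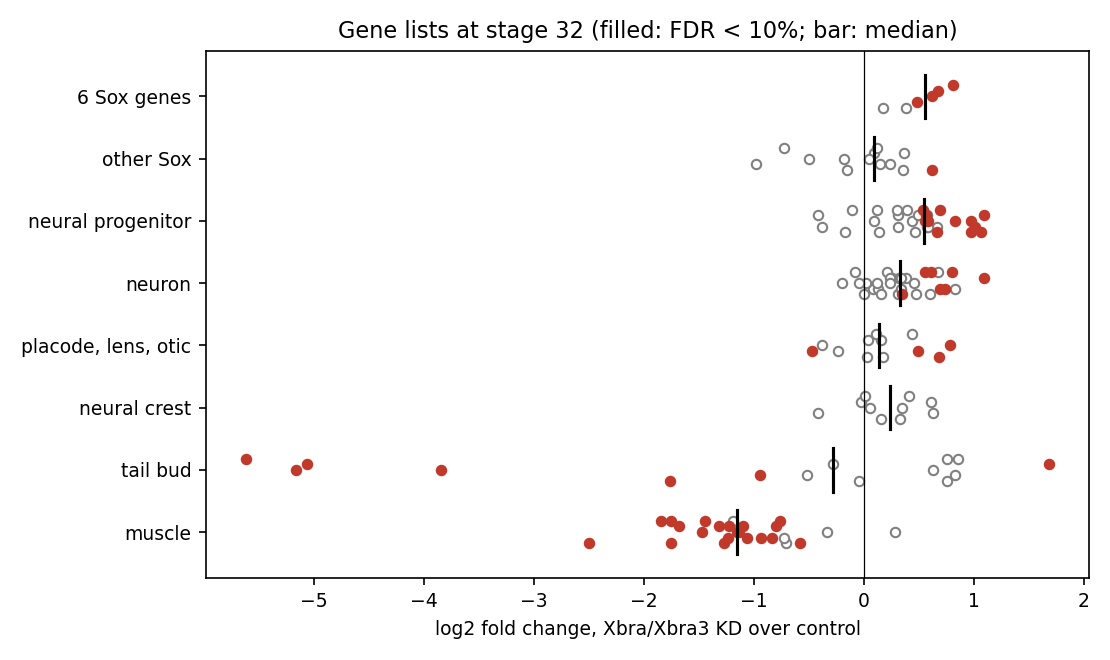
Log2 fold change of KD over control (horizontal axis) of every tested gene in the Sox set and in each gene list; points are genes, filled where the FDR was below 10%, and bars are medians. The medians of the Sox genes and of the neural progenitor genes are both 0.55, that of the neuron genes is 0.33 and that of the muscle genes is -1.16.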

How the data were processed

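Of the series, 7 poly(A) RNA-seq libraries were analysed here. The authors sequenced paired 55-base reads (CASAVA 1.8), aligned them with Bowtie 0.12.7 to the Ensembl JGI4.1 transcriptome, discarded pairs that fitted transcripts of different genes, and deposited counts of reads per transcript without normalization. Discarding lowers the counts of near-identical paralogs, and use of strand is not given in the sources used here. The table's header names were laid over its value columns in order, and this was checked by *t2*, which was low in the columns named for the KD. That checks the groups only. The order of replicates within a group follows the header and was not checked against another source. The pair differences and the replicate block rest on the numbers matching between groups, for which correlations are given below. Groups and replicate numbers came from the labels. Whether same-group libraries came from separate clutches is not given in the sources used here, so p-values measure the spread between these libraries.

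Transcripts were summed per gene. Of 766 genes named only by a RefSeq protein, 666 were given a symbol from RefSeq's annotation of a later assembly, from which no positions were used. Genes whose reads over the 6 stage 32 libraries summed to 10 or more were tested in edgeR 4.0.16 (R 4.3.3) with TMM scaling, a quasi-likelihood fit on group alone, prior count 0.125, Benjamini-Hochberg adjustment over all genes and an FDR threshold of 10%. Printed CPM were scaled over all 7 libraries. The 4 reference genes were *odc1*, *rpl8*, *eef1a1* and *gapdh*. Single values were compared by exact permutation. The fit on group alone was also run on simulated counts. These held no replicate effect, so they could not test how the fit handles same-numbered libraries.

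Libraries were paired by replicate number, a match between groups that the labels do not state. Deviations from the group means correlated across 16944 genes at r = 0.709, 0.719 and 0.358 for same-numbered libraries, and at -0.642 to 0.0746 for others. Deviations within a group cancel for each gene, so high values for some combinations force lower ones for others. The contrast is thus not separate evidence for the pairing. The study's methods name no term for the number, so the block is an alternative. The study does describe considerable variation between replicates, I and III against II, by which its libraries clustered whatever the knockdown condition. The main fit and the fits leaving out a library did not model it. Alternatives also included scaling by DESeq2's size factors, by the library size or by the reference genes, no filter, filterByExpr, DESeq2 1.42.0, an FDR of 5%, the transcript with the most reads, and leaving out each library. Legacy dispersions in edgeR and leaving out replicate 2 of both groups were chosen after seeing the data.

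The members and gene lists were chosen with earlier results of these data known. Named with values were the members, *t* and *t2*, other Sox genes that passed, up to 4 genes per list with the lowest p, and for each member the 3 nearest genes with a mean of at least 5 CPM (log2 CPM with a prior count of 2). Some genes named by this rule are given by count only. Listed genes not found in the table were left out. Sequences and the ChIP-seq and RT-qPCR samples were not analysed here.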

Additional observations from a re-analysis of the deposited data

How the results depend on the processing

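The 6 Sox genes kept a positive estimate under each of the 16 alternatives that refitted them, while the number called depended on the setting. It was 4 in the main analysis, 2 with DESeq2's size factors, 2 with legacy dispersions, 1 at an FDR of 5%, 0 to 3 when 1 library was left out, and 0 without replicate 2 of both groups. *sox2* and *sox21* passed in 11 of the 16, *sox3* in 8, *sox11* in 7 and *sox1* and *sox4* in 0. The 16 are not independent checks. The filters changed no read count of these genes, nor did the choice of transcript, as each has 1. For the 4 genes whose groups did not overlap, leaving out a library could hardly reverse the sign. The lowest estimates were 0.039 for *sox1* and 0.035 for *sox4*. With the replicate block the calls of all genes were 6468 against 2443, those of neural progenitor genes 23 against 12, of neuron genes 17 against 7, of tail bud genes 12 against 7, of placode, lens and otic genes 7 against 4 and of neural crest genes 5 against 0. The block changed no call of a Sox gene. At an FDR of 5% the counts were 1269 for all genes, 7 for neural progenitor, 3 for neuron and 2 for placode, lens and otic genes. Neural crest calls were 4 with library size only, 1 with reference genes and 2 with DESeq2, where calls over all genes were 2518, 2014 and 3389. Leaving out 1 library gave 868 to 1961 calls over all genes, 5 to 9 for neural progenitor, 1 to 7 for neuron, 12 to 18 for muscle, 1 to 3 for placode, lens and otic, and 0 to 1 for other Sox genes. Without replicate 2 of both groups there were 1396 calls over all genes, 6 for neural progenitor, 4 for neuron and 2 for placode, lens and otic genes. The stage 20 level of *sox11* was 0.32 above the control mean on the log2 scale, 0.20 with library size only and 0.25 with reference genes. Its order and that of *sox3* among the stage 32 libraries changed under scaling by library size and under no other scaling used. The order of *sox1* changed under scaling by library size and by reference genes. Where libraries were fewer, the test had fewer samples, and other causes were not tested. There were 3 libraries per group and 1 at stage 20. The effect of read depth on precision was not tested.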
